A study of Mus musculus with 4 samples.

Results

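The genes described here are 7 Wnt ligands (Wnt2, Wnt4, Wnt5a, Wnt7a, Wnt7b, Wnt9a and Wnt10a), the secreted proteins Dkk3 and Sfrp1, and Axin2, a feedback target of β-catenin that serves as the readout of the pathway. They were taken by symbol and are 10 of the 22609 gene symbols counted. All 10 passed the filter on low counts, which left 14527 genes to test. RNA-Seq was carried out on hippocampi of ovariectomized female mice of 2 genotypes, with 2 libraries each. FLOX mice carry a floxed Cyp19a1 gene, which encodes aromatase, the enzyme that makes 17β-estradiol from androgens. FBN-ARO-KO mice carry the same floxed gene together with Cre driven by the CaMKIIα promoter, so that aromatase is deleted in excitatory neurons of the forebrain, and glia and other cells keep it. All mice, controls included, had been ovariectomized 1 week before global cerebral ischemia (GCI), in which both common carotid arteries were clamped for 20 min, and the hippocampi were taken after 24 h of reperfusion. The animals were age-matched adults, and no sham-operated library was analysed here, so the values describe the genotypes after ischemia and not the response to it. The series description states that samples were run in duplicate, and the labels do not say whether the 2 libraries of a genotype came from separate mice. P-values therefore measure the spread between these libraries, which may in part be technical.

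The libraries held 24333396 to 33076795 counts on genes, so that 3 counts, taken as the floor of detection, corresponded to 0.0907 to 0.123 CPM, the usual unit of read counts scaled to a common library size. These limits cover counting error only. Cyp19a1 was counted 4 and 1 times in the FLOX+GCI libraries and 2 and 2 times in the FBN-ARO-KO+GCI libraries, which is too few to check the genotype labels. Hippocampal pyramidal cell markers were present at a summed 1218 to 1257 CPM and granule cell markers at 293 to 341 CPM, and no listed marker of either was at 0 in any library.

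Wnt proteins are secreted, lipid-modified ligands. Porcn, an acyltransferase of the endoplasmic reticulum, attaches a fatty acid to a conserved serine, and Frizzled receptors bind the ligand through that lipid. When a Wnt engages Frizzled and the co-receptors Lrp5 or Lrp6, the complex of Axin, Apc, Gsk3 and casein kinase that destroys β-catenin is inhibited, and β-catenin enters the nucleus to activate genes such as Axin2 together with Tcf and Lef factors. In the brain, Wnt7a and Wnt7b are known for signaling through Gpr124 and Reck on endothelial cells during vessel and barrier formation and for roles in dendrites and synapses, and Wnt5a is best known for β-catenin-independent signaling. Sfrp1 binds Wnt ligands in the extracellular space. Dkk3 belongs to the Dickkopf family, but unlike Dkk1 it is not an established inhibitor of Lrp5 and Lrp6.

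The coding sequence around the lipidated serine is shown because it is the site that the 7 ligands share and because it shows how far Wnt7b and its closest paralog Wnt7a can be told apart by short reads. Each stretch is 87 bases long, is read 5′ to 3′ on the coding strand from the longest protein-coding transcript in GENCODE M1 (build NCBIM37, which is mm9), and has the serine codon in capitals.
Wnt7b: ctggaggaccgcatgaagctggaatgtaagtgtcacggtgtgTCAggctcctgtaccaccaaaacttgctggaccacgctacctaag
Wnt7a: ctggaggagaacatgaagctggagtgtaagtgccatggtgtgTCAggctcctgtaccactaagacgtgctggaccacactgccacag
Wnt2: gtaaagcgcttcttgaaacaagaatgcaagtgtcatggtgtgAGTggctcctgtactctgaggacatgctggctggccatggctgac
Wnt4: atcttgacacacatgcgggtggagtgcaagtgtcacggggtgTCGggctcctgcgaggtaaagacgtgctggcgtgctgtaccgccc
Wnt5a: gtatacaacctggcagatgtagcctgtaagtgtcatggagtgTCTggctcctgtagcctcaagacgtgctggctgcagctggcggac
Wnt10a: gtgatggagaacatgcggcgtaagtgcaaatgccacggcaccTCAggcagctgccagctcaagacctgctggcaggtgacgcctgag
Wnt9a: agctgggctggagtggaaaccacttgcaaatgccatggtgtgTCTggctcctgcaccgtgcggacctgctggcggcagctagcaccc
In Wnt7b this stretch lies in exon 4 of 4, on the minus strand of chr15:85368209-85368295. The Wnt7a stretch, in exon 4 of 4 on the minus strand of chr6:91316233-91316319, had the same base as Wnt7b at 85.1% of positions. The other ligands had the same base as Wnt7b at 52.9% (Wnt9a) to 62.1% (Wnt2) of positions. The Wnt9a stretch runs over the junction of exons 3 and 4 of its 4 exons. At the read length of 50 nt used here, each 50-base window of the Wnt7b and the Wnt7a transcript was found in no other annotated coding transcript. The same held for Wnt2, Wnt5a, Wnt9a, Wnt10a, Dkk3 and Axin2. In Wnt4 95.9% of windows were unique, and in Sfrp1 99.7%. Whether reads were counted by strand is not given in the sources used here, and genes on the opposite strand overlap 0.861% of the exonic bases of Wnt7b, 4.58% of those of Wnt5a and 3.80% of those of Axin2.

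Wnt7b had the highest level of the 7 ligands in every library. As CPM per kb of the longest coding transcript, a scale on which genes can be compared, its level was 20.4 and 27.0 in the FLOX+GCI libraries and 16.9 and 16.7 in the FBN-ARO-KO+GCI libraries. This was 42.5% to 54.0% of the length-scaled level summed over all 19 mouse Wnt ligands. Wnt7a followed, with a mean length-scaled level over the 4 libraries of 6.92, then Wnt4 with 4.36, Wnt2 with 2.86, Wnt9a with 2.35, Wnt5a with 1.68 and Wnt10a with 1.29. Neighbors in the lower part of this order were not separated beyond the spread between libraries. Wnt2 ran from 2.23 to 3.44 on this scale and Wnt9a from 1.58 to 3.53, and the ranges of Wnt5a (1.51 to 2.18) and Wnt10a (1.05 to 1.50) nearly met. Dkk3 was far above every ligand, with a mean length-scaled level of 167. Sfrp1 had 1.25 and Axin2 5.94.

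**Figure D1:**
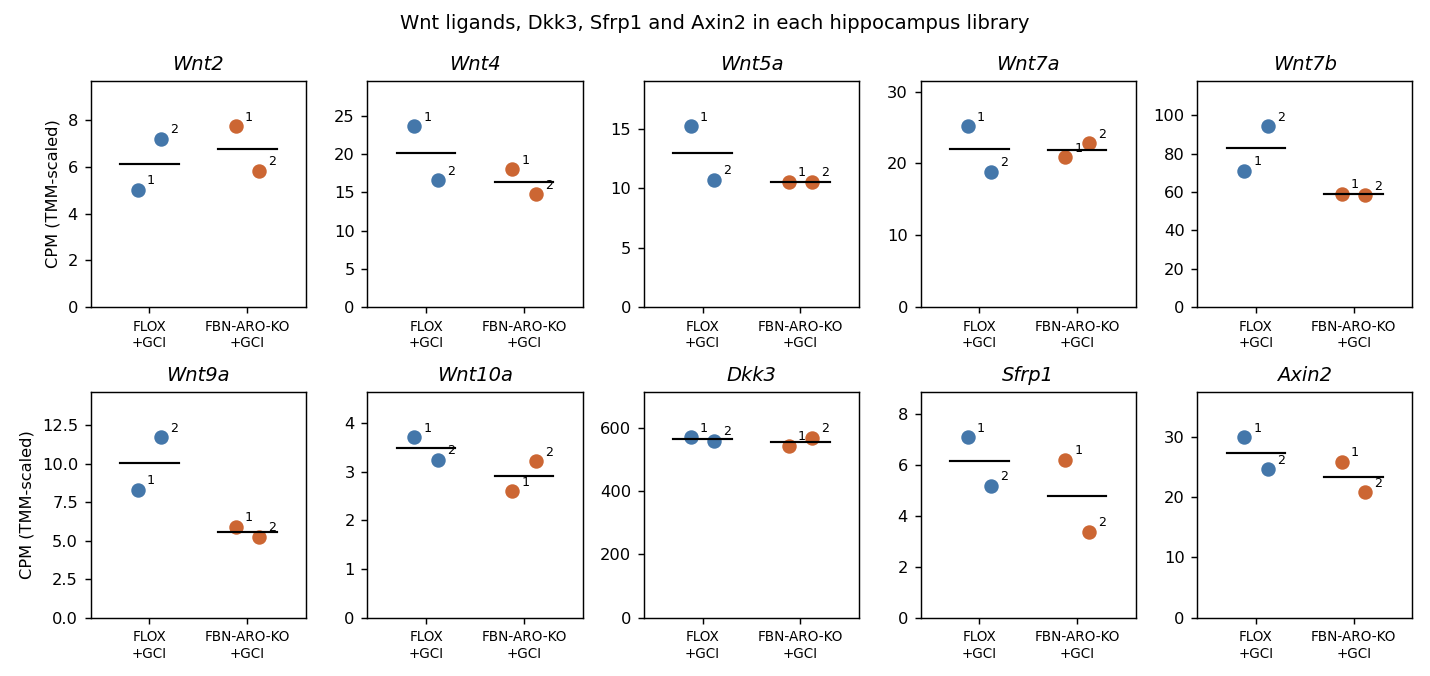
TMM-scaled CPM (vertical axes, each from 0) of the 10 genes in FLOX+GCI and FBN-ARO-KO+GCI. Each point is 1 library with its replicate number, and the line is the mean of 2 libraries. Wnt7b, Wnt9a, Wnt5a and Wnt10a have both FBN-ARO-KO+GCI libraries below both FLOX+GCI libraries, by a wide gap in Wnt9a and a very small gap in Wnt5a and Wnt10a.

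The comparison of genotypes asks whether deleting aromatase in forebrain neurons altered the expression of these genes after ischemia. With the quasi-likelihood test of edgeR and Benjamini-Hochberg adjustment over all genes tested, none of the 10 genes passed an adjusted p of 0.05. In the whole data 2 genes passed, which is 0.0138%. At an unadjusted p under 0.05, Wnt7b and Wnt9a were lower in FBN-ARO-KO+GCI and none of the 10 was higher. In the whole data 7.82% of genes were lower and 8.72% higher by that rule. In 4 of the 10 genes both FBN-ARO-KO+GCI libraries were below both FLOX+GCI libraries and in 0 they were above, beside 25.8% of all genes below and 25.9% above. The median log2 fold change of the 10 genes was -0.28 (range -0.84 to 0.15), and that of all genes tested was -0.01. The median of the 10 genes rested on single libraries: it was -0.08 without replicate 1 of FLOX+GCI, -0.12 without replicate 2 of FBN-ARO-KO+GCI and -0.36 without replicate 2 of FLOX+GCI.

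Wnt7b, the most abundant of the ligands, was counted 1782 and 2325 times in the FLOX+GCI libraries and 1961 and 1709 times in the FBN-ARO-KO+GCI libraries. Scaled to library size these were 71.1 and 94.3 CPM against 59.2 and 58.3 CPM. The groups did not overlap, and the FLOX+GCI libraries differed from each other by more than the gap between the groups. The mean was 82.7 ± 16.4 CPM in FLOX+GCI and 58.8 ± 0.577 CPM in FBN-ARO-KO+GCI (SD, n = 2 each). Its log2 fold change was -0.49 (SE 0.13, 95% interval -0.80 to -0.19), with an unadjusted p of 0.00621 and an adjusted p of 0.238 by edgeR. Which library was left out decided the call. Without replicate 1 of FLOX+GCI the log2 fold change of Wnt7b was -0.68 with an adjusted p of 0.00785 by edgeR, and without replicate 2 of FLOX+GCI it was -0.28 with an adjusted p of 0.319. DESeq2 gave the same size, -0.49, with an adjusted p of 0.0169. Wnt7b is also a gene that the study singled out for qRT-PCR after sequencing these libraries, so that its direction here is a description and not independent evidence. By qRT-PCR the paper reported significantly lower Wnt7b in FBN-ARO-KO+GCI.

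Wnt9a had the largest log2 fold change of the 10 genes. It was counted 208 and 289 times in FLOX+GCI and 196 and 154 times in FBN-ARO-KO+GCI, or 8.30 and 11.7 CPM against 5.91 and 5.26 CPM. Both FBN-ARO-KO+GCI libraries were below both FLOX+GCI libraries. The means were 10.01 ± 2.42 and 5.59 ± 0.464 CPM (SD, n = 2 each), a ratio of 0.558. Its log2 fold change was -0.84 (SE 0.20, 95% interval -1.32 to -0.36), with an unadjusted p of 0.00394 and an adjusted p of 0.238 by edgeR. As for Wnt7b, leaving out replicate 1 of FLOX+GCI brought it past the threshold, at -1.07 with an adjusted p of 0.0178 by edgeR. Without replicate 2 of FLOX+GCI, the library in which both Wnt9a and Wnt7b were highest, it was -0.57 with an adjusted p of 0.272.

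The remaining 5 ligands had intervals that include 0. Wnt5a was at 15.2 and 10.8 CPM in FLOX+GCI and at 10.6 and 10.6 CPM in FBN-ARO-KO+GCI, with a log2 fold change of -0.30 (SE 0.18, 95% interval -0.72 to 0.13). Its groups did not overlap, but replicate 2 of FLOX+GCI lay next to the FBN-ARO-KO+GCI libraries, and the log2 fold change was -0.02 without replicate 1 of FLOX+GCI and -0.53 without replicate 2 of FLOX+GCI. Wnt10a, which had the lowest level of the ligands, was at 3.71 and 3.25 CPM against 2.59 and 3.21 CPM, with a log2 fold change of -0.26 (SE 0.23, 95% interval -0.80 to 0.27). Here replicate 2 of each genotype nearly coincided.

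Wnt4 was at 23.7 and 16.6 CPM in FLOX+GCI and at 18.0 and 14.8 CPM in FBN-ARO-KO+GCI. The groups overlapped, and the log2 fold change of -0.29 (SE 0.19, 95% interval -0.73 to 0.14) was -0.02 without replicate 1 of FLOX+GCI and -0.53 without replicate 2 of FLOX+GCI. Wnt7a was at 25.2 and 18.9 CPM against 20.9 and 22.8 CPM. Both FBN-ARO-KO+GCI libraries lay between the FLOX+GCI libraries, and the log2 fold change was -0.01 (SE 0.15, 95% interval -0.37 to 0.34). Wnt2, at 5.03 and 7.22 CPM against 7.75 and 5.84 CPM, also overlapped, with a log2 fold change of 0.15 (SE 0.23, 95% interval -0.39 to 0.70), the only positive one of the 10. The adjusted p of these 5 ligands ran from 0.420 to 0.975 by edgeR.

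The paralogs Wnt7b and Wnt7a were also set against each other within each library. The length-scaled level of Wnt7b was 2.57 and 4.54 times that of Wnt7a in FLOX+GCI and 2.57 and 2.32 times in FBN-ARO-KO+GCI. The ratio stood apart in replicate 2 of FLOX+GCI, where Wnt7b was highest and Wnt7a lowest, and was alike in the other 3 libraries. The sum of the length-scaled levels of all Wnt ligands was 46.8 and 50.0 in the FLOX+GCI libraries, against 39.9 and 37.6 in the others, and Wnt7b made up the largest share of it in each library.

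Of the secreted modulators, Dkk3 was close to equal in all libraries, at 571 and 559 CPM in FLOX+GCI and 543 and 568 CPM in FBN-ARO-KO+GCI. It was also the most precisely measured of the 10 genes, with a log2 fold change of -0.02 (SE 0.07) and a 95% interval of -0.18 to 0.13. Sfrp1 was at 7.10 and 5.19 CPM against 6.21 and 3.38 CPM, and the groups overlapped. Its log2 fold change of -0.35 (SE 0.30, 95% interval -1.07 to 0.36) depended on the FBN-ARO-KO+GCI libraries, and was 0.02 without replicate 2 and -0.87 without replicate 1 of that genotype. Adjusted p-values by edgeR were 0.873 for Dkk3 and 0.565 for Sfrp1.

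Axin2, the readout of β-catenin activity among the 10, was counted 750 and 606 times in FLOX+GCI and 857 and 609 times in FBN-ARO-KO+GCI, or 29.9 and 24.6 CPM against 25.9 and 20.8 CPM. The genotypes overlapped, and replicate 1 was above replicate 2 in both. The means were 27.3 ± 3.78 and 23.3 ± 3.58 CPM (SD, n = 2 each), so that the difference between genotypes was close to the spread within each. The log2 fold change was -0.22 (SE 0.15, 95% interval -0.57 to 0.12), with an adjusted p of 0.451 by edgeR. It ran from -0.39 to -0.07 when each library was left out in turn, and was nearest 0 without replicate 1 of FLOX+GCI.

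**Figure D2:**
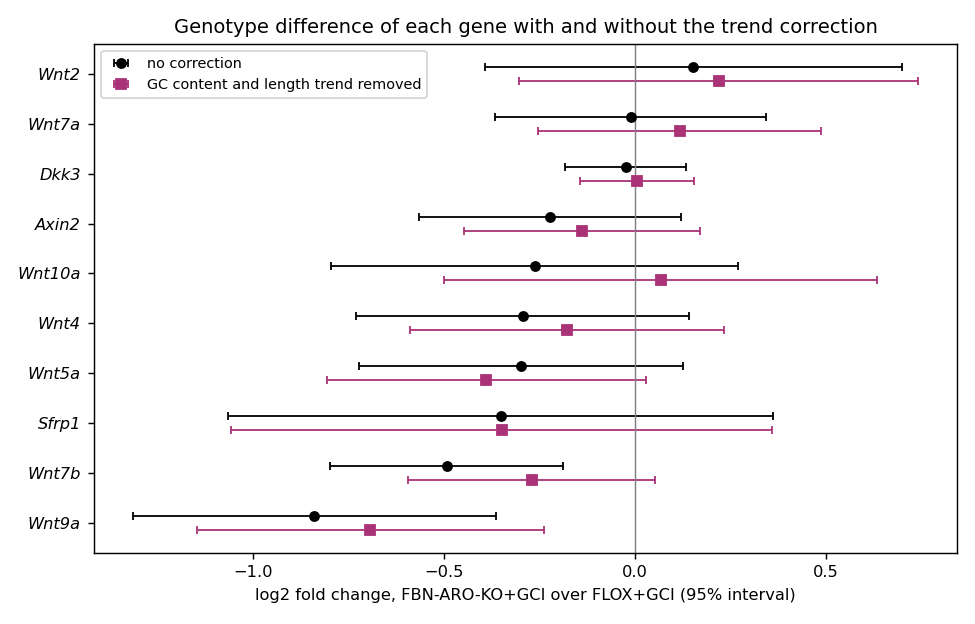
Log2 fold change of FBN-ARO-KO+GCI over FLOX+GCI (horizontal axis) for each of the 10 genes, with 95% intervals, from edgeR. Black circles are the values without correction and purple squares those with the trend in GC content and transcript length removed. Without correction the intervals of Wnt7b and Wnt9a exclude 0, and with it only that of Wnt9a does.

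The genotype difference moved with the base composition of transcripts across the whole data. Over 13869 genes, Spearman's rho between log2 fold change and transcript GC content was -0.55, which describes a trend across genes, and genes of 1 library are not independent of each other. The difference between the FBN-ARO-KO+GCI libraries followed GC content as well, with a rho of -0.48 (replicate 2 minus replicate 1), and that between the FLOX+GCI libraries with a rho of 0.10. The 10 genes had a median GC content of 55.0%, above the 50.6% of all genes tested, with Wnt10a at 63.8%, Wnt7b at 59.8%, Wnt9a at 56.4% and Wnt5a lowest at 46.7%. Whether the trend arose in the tissue or in the preparation of the libraries was not tested.

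With the trend in GC content and length fitted in each library and removed, the log2 fold change of Wnt7b was -0.27 (95% interval -0.59 to 0.05), with an unadjusted p of 0.0877 and an adjusted p of 0.507 by edgeR. The corrected levels of Wnt7b were 65.1 and 88.2 CPM in FLOX+GCI and 60.4 and 66.7 CPM in FBN-ARO-KO+GCI, and the groups overlapped. Wnt9a kept most of its difference, with a log2 fold change of -0.69 (95% interval -1.15 to -0.24), an unadjusted p of 0.00861 and an adjusted p of 0.349 by edgeR. Its corrected levels of 7.89 and 11.1 CPM against 5.97 and 5.78 CPM did not overlap. Wnt5a, which has the lowest GC content, moved the other way, from -0.30 to -0.39, and its groups of 15.7 and 11.1 CPM against 10.5 and 9.98 CPM did not overlap either. Wnt10a, at the highest GC content, went from -0.26 to 0.07, and its groups overlapped.

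After this correction 1 of the 10 genes, Wnt9a, was lower at an unadjusted p under 0.05 and 0 were higher, beside 3.51% of all genes lower and 7.9% higher. In 2 of the 10, Wnt5a and Wnt9a, both FBN-ARO-KO+GCI libraries were below both FLOX+GCI libraries and in 0 above, beside 16% of all genes below and 28.3% above. The median of the 10 genes was then -0.16 and that of all genes tested 0.03. Axin2 had a corrected log2 fold change of -0.14, Wnt4 -0.18, Sfrp1 -0.35, Dkk3 0.00, Wnt7a 0.12 and Wnt2 0.22.

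**Figure D3:**
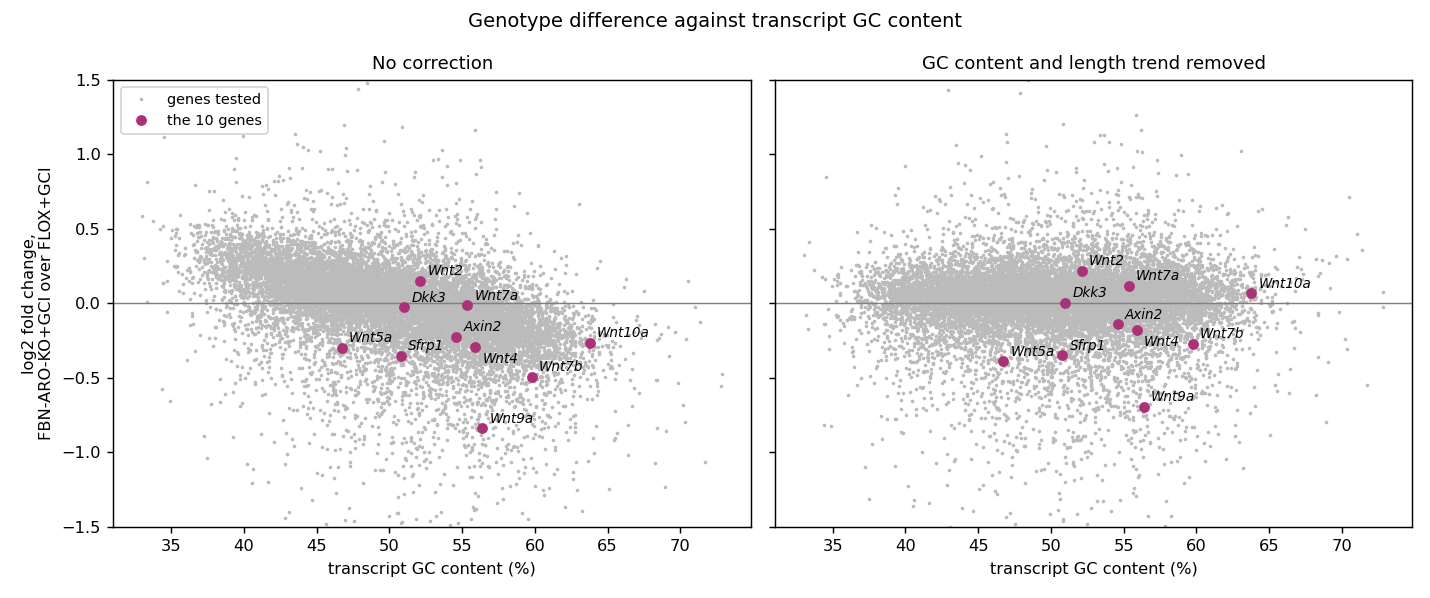
Log2 fold change of FBN-ARO-KO+GCI over FLOX+GCI (vertical axis) against transcript GC content in percent (horizontal axis). Each grey point is 1 of 13869 genes tested and the purple points are the 10 genes, without correction on the left and with the trend removed on the right. The axis ends at 1.5 in each direction, which leaves out 43 genes on the left and 40 on the right. The cloud slopes downward on the left and is level on the right, where Wnt9a is still the lowest of the 10.

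The other genes of the Wnt pathway were described from fixed lists, by role. Of 78 such genes in the counts, 67 passed the filter. None had an adjusted p under 0.05 by edgeR. DESeq2 called none either, but its filtering left an adjusted p to only 5728 genes of the whole data. Lef1 and Nkd1 were not among these and could not pass. At an unadjusted p under 0.05, 5 were lower in FBN-ARO-KO+GCI (Wnt9b, Fzd9, Apc2, Lef1 and Nkd1) and 1 was higher (Csnk1a1), and their median log2 fold change was -0.06. In 15 of the 67 both FBN-ARO-KO+GCI libraries were below both FLOX+GCI libraries and in 12 above. These shares were no larger than those of all genes given above. With the GC and length trend removed, 2 of the 67 were lower (Lef1 and Nkd1) and 2 higher (Axin1 and Gsk3a) at an unadjusted p under 0.05. This was 2.99% in each direction, beside 3.51% of all genes lower and 7.9% higher. Both FBN-ARO-KO+GCI libraries were then below in 7 genes (10.45%) and above in 17 (25.37%), beside 16% and 28.3% of all genes. The median log2 fold change of the 67 was then 0.03, the same as that of all genes tested. The 11 genes below the filter include Wnt1, Wnt3a, Wnt8a, Wnt8b and the Wnt antagonist Dkk1, which had 0 to 9 counts per library.

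Among the other 12 ligands, 8 passed the filter, and their median log2 fold change was -0.07. Wnt9b, the closest paralog of Wnt9a, was counted 24 and 24 times in FLOX+GCI and 16 and 15 times in FBN-ARO-KO+GCI, with a log2 fold change of -0.95 (SE 0.37) and an adjusted p of 0.274 by edgeR. Its libraries did not overlap before or after the correction. After the correction its log2 fold change was -0.82 with an unadjusted p of 0.0583 by edgeR, so that Wnt9b no longer passed the unadjusted threshold. By DESeq2 without the correction Wnt9b did not pass that threshold either. Wnt5b had the highest length-scaled level of these 8 ligands and a log2 fold change of -0.06. Porcn, which lipidates the serine shown above, was at 70.9 to 77.3 CPM in all libraries, with a log2 fold change of -0.06.

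None of the 8 other secreted antagonists passed even the unadjusted threshold. Frzb, a relative of Sfrp1 that also binds Wnt ligands, had the highest length-scaled level of these. It was at 36.7 and 23.4 CPM in FLOX+GCI and at 43.4 and 36.9 CPM in FBN-ARO-KO+GCI, higher in both FBN-ARO-KO+GCI libraries, with a log2 fold change of 0.42 (SE 0.20, adjusted p of 0.334 by edgeR). The gap was very small, with replicate 1 of FLOX+GCI at 36.7 CPM and replicate 2 of FBN-ARO-KO+GCI at 36.9 CPM.

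Among the receptors, 1 of 10 Frizzled genes, Fzd9, was lower at an unadjusted p under 0.05, with a log2 fold change of -0.40 that was -0.11 after the correction. Fzd3, the Frizzled with the highest length-scaled level, had 0.23. Of the 10 co-receptors 0 passed in either direction. Ryk, a co-receptor with an extracellular Wnt-binding domain, had the highest length-scaled level of these and a log2 fold change of 0.11. In the R-spondin module, whose ligands, receptors and ubiquitin ligases set how much Frizzled is at the cell surface, 0 of 8 passed, and its most abundant member by length-scaled level, Rspo2, had -0.01.

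In the β-catenin destruction complex, Apc2, an Apc relative of neurons, was lower at an unadjusted p under 0.05, with a log2 fold change of -0.22 that was 0.00 after the correction. Csnk1a1, the casein kinase that primes β-catenin for degradation, was higher, at 237 and 233 CPM in FLOX+GCI and 263 and 294 CPM in FBN-ARO-KO+GCI, with a log2 fold change of 0.24 (SE 0.08, adjusted p of 0.248 by edgeR) that was 0.11 after the correction. Ctnnb1, which encodes β-catenin itself, was at 651 and 653 CPM against 668 and 713 CPM, with a log2 fold change of 0.08.

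Lef1 and Nkd1 were the genes downstream of β-catenin that were lower at an unadjusted p under 0.05, and both remained so after the correction. Leaving out libraries changed this: without replicate 2 of FBN-ARO-KO+GCI, the unadjusted p by edgeR was 0.0831 for Lef1 and 0.096 for Nkd1. For Lef1 it was also 0.137 without replicate 1 of FLOX+GCI and 0.0706 without replicate 1 of FBN-ARO-KO+GCI, and 0.0635 by DESeq2. Lef1, a transcription factor that partners with β-catenin, was at 5.51 and 4.06 CPM in FLOX+GCI and 3.08 and 2.94 CPM in FBN-ARO-KO+GCI, with a log2 fold change of -0.67 (SE 0.23), and -0.63 after the correction. Nkd1, a feedback inhibitor that binds Dishevelled, was at 13.4 and 13.3 CPM against 10.6 and 7.34 CPM, with -0.57 (SE 0.19), and -0.49 after the correction. The adjusted p was 0.248 for each by edgeR. The 8 feedback targets tested beside Axin2 had a median log2 fold change of -0.24, 5 of them negative and 3 positive, and a median of -0.09 after the correction. Tnfrsf19, the target with the highest length-scaled level, was at 84.4 to 87.1 CPM in all libraries. Pygo2, the nuclear effector with the highest length-scaled level, had a log2 fold change of -0.03.

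**Figure D4:**
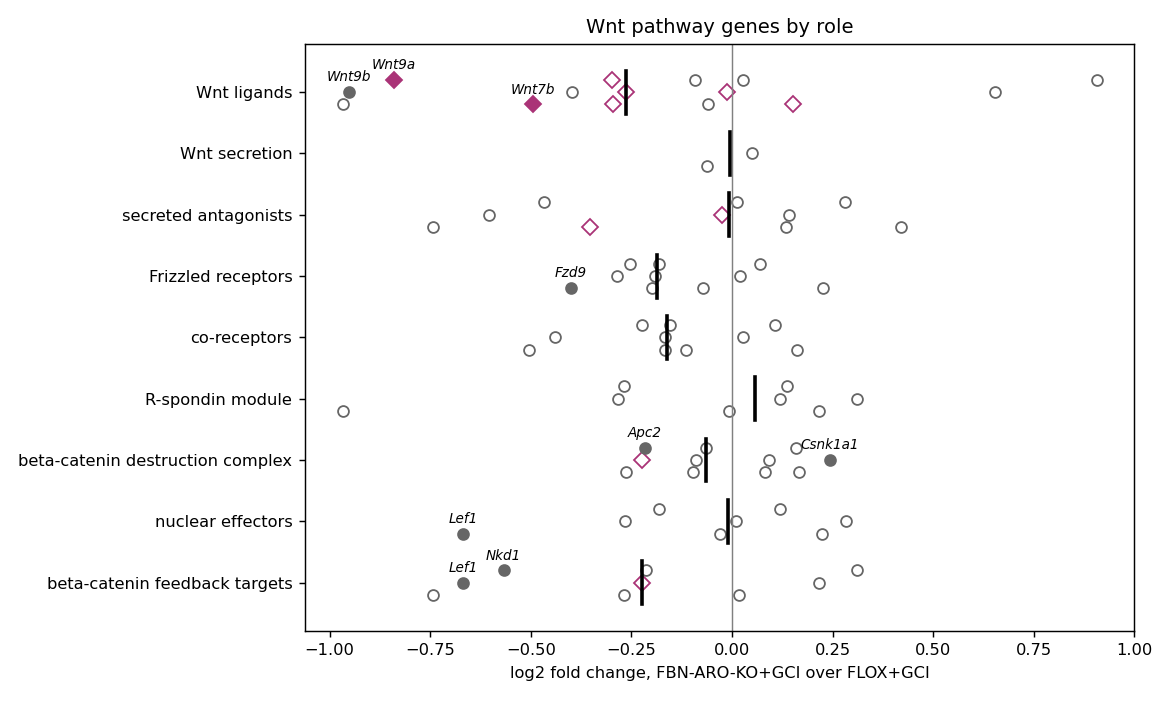
Log2 fold change of FBN-ARO-KO+GCI over FLOX+GCI (horizontal axis) of the Wnt pathway genes tested, by role. Purple diamonds are the 10 genes and grey circles the others, filled and named where the unadjusted p by edgeR is under 0.05, and the bars are the medians of each role with both kinds of gene included. Vertical offsets within a role only separate the points, and genes in more than 1 role are drawn in each. Wnt7b, Wnt9a and Wnt9b are the filled ligands, and all are on the negative side.

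The pathway genes whose course over the 4 libraries was closest to that of Wnt7b were Rnf43, Wnt9a and Dvl1. The root mean square distance of their centered log2 CPM from that of Wnt7b was 0.139, 0.179 and 0.182, over 4 libraries and out of 76 genes compared. These distances were taken without the GC and length correction. Rnf43, a ubiquitin ligase that removes Frizzled from the cell surface, had a log2 fold change of -0.27, and -0.14 after the correction, where its groups overlapped. Dvl1, a Dishevelled protein that relays the Frizzled signal, had -0.26, and -0.03 after the correction.

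The libraries also differed in their content of vascular and meningeal RNA. The summed level of 8 markers of fibroblasts and meninges was 399.6 and 198.5 CPM in FLOX+GCI and 240.7 and 127.1 CPM in FBN-ARO-KO+GCI, and that of 7 endothelial markers was 319 and 239 CPM against 278 and 210 CPM. Both sums were highest in replicate 1 of FLOX+GCI, followed by replicate 1 of FBN-ARO-KO+GCI, replicate 2 of FLOX+GCI and replicate 2 of FBN-ARO-KO+GCI. In the tissue as a whole, fewer cells of a type and less RNA per cell cannot be told apart. No marker of either list was at 0 in any library.

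Wnt4, Sfrp1 and Axin2 followed the same order of libraries, a pattern that was chosen after their values were seen. These are 3 of the 10 genes, beside 4.71% of all genes tested. The order was itself read from the marker sums. Of the markers, 5 of 8 for fibroblasts and meninges and 5 of 7 for endothelial cells had this order. Of the other pathway genes 8 of 67 did, among them Gpr124, at 23.4 and 11.9 CPM against 14.4 and 10.5 CPM, and Reck, at 15.4 and 10.5 CPM against 10.9 and 8.19 CPM, which encode the endothelial receptors for Wnt7a and Wnt7b. Wnt7b itself had another order, with its highest level in replicate 2 of FLOX+GCI. The part of vascular and meningeal RNA in the values of Wnt4, Sfrp1 and Axin2 was not tested.

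**Figure D5:**
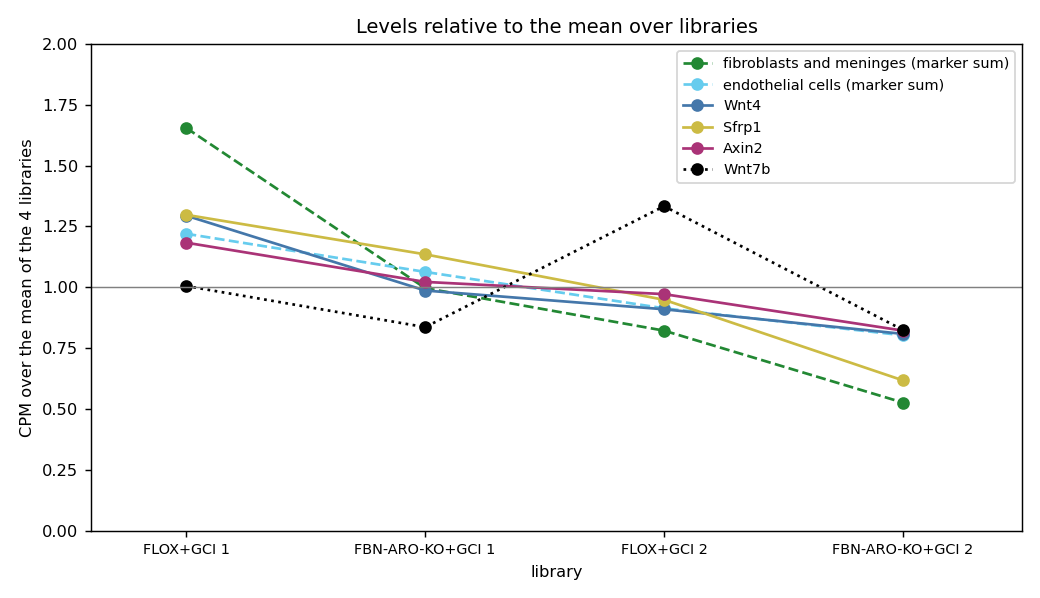
CPM divided by the mean of the 4 libraries (vertical axis, from 0) in each library (horizontal axis, ordered by the marker sums). Dashed lines are the summed markers of fibroblasts and meninges and of endothelial cells, solid lines are Wnt4, Sfrp1 and Axin2, and the dotted line is Wnt7b. The solid and dashed lines descend from left to right, and Wnt7b peaks in replicate 2 of FLOX+GCI at 1.33 times its mean.

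The other marker sums did not follow that order. Astrocyte markers summed to 5609 and 5204 CPM in FLOX+GCI and 5757 and 6282 CPM in FBN-ARO-KO+GCI, and oligodendrocyte markers to 3696 and 4212 CPM against 4263 and 4385 CPM. Most of the astrocyte sum was Slc1a2, at 3151 and 2988 CPM against 3280 and 3800 CPM. Of the 8 astrocyte markers, 1 (Slc1a2) was higher in both FBN-ARO-KO+GCI libraries and 1 (Aldh1l1) was lower in both. Gfap, the intermediate filament gene of reactive astrocytes, was at 395.8 and 900.3 CPM in FLOX+GCI and at 502 and 560.2 CPM in FBN-ARO-KO+GCI. Replicate 2 of FLOX+GCI had the highest level of Gfap, Wnt7b and Wnt9a, and the values of Wnt7b and Wnt9a without this library are those given above.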

How the data were processed

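Per the labels and the study's methods, the authors prepared TruSeq libraries from hippocampal RNA, sequenced 50 nt single-end reads, aligned them to mm9 with TopHat2 2.0.8b and counted reads per gene symbol with HTSeq. The deposited values are raw counts without normalization. The annotation release and strand setting are not given in the sources used here. Reads not assigned to a gene were left out of library sizes: alignments that were not unique made up 35.1% to 36.5% of all counted entries, reads on no gene 7.96% to 8.70% and ambiguous reads 0.265% to 0.283%.

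Groups and replicate numbers came from the sample labels. The main test was the edgeR (4.0.16, R 4.3.3) quasi-likelihood F test of genotype across all genes, after TMM scaling and filterByExpr with a minimum count of 10, at a Benjamini-Hochberg adjusted 0.05. SE is the log2 fold change over the square root of F. For 2 libraries against 2, the smallest two-sided p of an exact permutation test is 0.333. The correction for GC content and transcript length models every library with natural splines (5 degrees of freedom) and enters edgeR as an offset. Alternatives were DESeq2 1.42.0, other scalings, no filter, the replicate block and each library left out. The procedure was tested on simulated data with 200 genes changed 2-fold. The main fit recovered 153 of them with 3 false calls. With the same GC trend of fixed size added to both FBN-ARO-KO+GCI libraries, it recovered 159 with 222 false calls, and DESeq2 147 with 191. The GC and length correction then recovered 155 with 2 false calls. The added trend was of a form that the splines can fit. In the data the trend also differed between the FBN-ARO-KO+GCI libraries, so these counts do not measure how well the correction works there. Gene positions, lengths, GC content and coding sequences came from GENCODE M1 on NCBIM37, which gave 20063 of the 22609 symbols a coding transcript at 1 locus and all 10 genes. Of 89 pathway genes listed, 88 were found under their symbol.

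The 10 genes and the lists of pathway and marker genes were chosen with earlier results of these data known. Named pathway genes are, by role, up to 3 per direction with an unadjusted p under 0.05 and the 1 with the highest length-scaled level. The 3 closest to Wnt7b over the libraries are named as well. Genes outside this rule (Wnt1, Wnt3a, Wnt8a, Wnt8b, Dkk1, Axin1, Gsk3a, Gpr124 and Reck) were named after their values were seen.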

Additional observations from a re-analysis of the deposited data

How the results depend on the processing

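Wnt4, Wnt5a, Wnt7b, Wnt9a and Axin2 kept their direction under all 11 alternatives. Of the 110 log2 fold changes of the 10 genes under these, 95 kept direction and side of the threshold, 12 changed sign and 3 passed the threshold. DESeq2 called 292 of the 5728 genes to which its filtering left an adjusted p. Only 2 of the 10 genes (Wnt7b and Dkk3) were among these 5728, and DESeq2 called 1 of the 10, Wnt7b (-0.49, adjusted p 0.0169). The DESeq2 values of the other genes are counted among the 95 by their direction, because without an adjusted p they had no side of the threshold. With the trend in GC content and length removed, 1 of the 10 had an unadjusted p under 0.05, and the sign turned for Wnt7a (0.12), Wnt10a (0.066) and Dkk3 (0.0041). With the replicate block and that correction together these were 0.12, 0.053 and 0.0034. That combined fit had 3 of the 10 (Wnt5a, Wnt7b and Wnt9a) lower at an unadjusted p under 0.05 by edgeR and 0 higher. Of all genes 4.59% were lower and 7.55% higher by that rule, and 0 of the 10 passed the adjusted threshold. Leaving out each library in turn, which takes the spread of the lone library from the other group, gave -0.68 to -0.28 for Wnt7b, -0.083 to 0.43 for Wnt2, -0.21 to 0.21 for Wnt7a, -0.056 to 0.0045 for Dkk3 and -0.87 to 0.016 for Sfrp1. It also changed which of the 10 genes and of the other pathway genes passed the adjusted threshold, beside the changes over all genes given below. At an unadjusted p under 0.05 it gave 2 to 5 of the 10, with 5 (Wnt4, Wnt5a, Wnt7b, Wnt9a and Axin2, all lower) without replicate 2 of FLOX+GCI, where 7.06% of all genes were lower. Of the other 67 it gave 1 to 10 (1.49% to 14.9%) against 6 (8.96%) in the full data, beside 5.64% to 18.8% of all genes in the same fits and 16.5% in the full data. The cause of these changes was not tested.

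Genes called over the whole data numbered 2 by edgeR, 5 without the filter, 292 by DESeq2, 184 with the replicate block and 0 to 193 with a library left out. Same-numbered libraries deviated together with a correlation of 0.13, or 0.15 after the GC correction, which from 2 pairs does not show that the numbers pair the libraries. With the replicate block, Wnt7b had a log2 fold change of -0.48 (adjusted p 0.0515 by edgeR) and Wnt9a -0.82 (0.0523). With the block and the GC and length correction together these were -0.26 (adjusted p 0.348 by edgeR) and -0.67 (0.269). That combined fit called 3 genes over the whole data. By the block alone, 13 of the other 67 pathway genes (19.4%) had an unadjusted p under 0.05 by edgeR. Of these 10 were lower and 3 higher, and the share over all genes was 17.5%. Libraries of a genotype differed by more than counting noise (chi-square per degree of freedom 10.47 and 12.3) over all genes. Genes with few counts, such as Wnt9b, are also limited by depth.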
